A study of Mus musculus with 16 samples.

Results

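Scavenger and endocytic receptors were examined as a group of 10 genes, namely Marco, Msr1, Colec12, Cd36, Scarb1, Stab1, Stab2, Mrc1, Lrp1 and Cd5l. They were chosen by symbol, without use of their levels, and each matched 1 of the 55421 gene rows of the count table. RNA was sequenced from lymph node macrophages of tumor-bearing mice to ask how subcapsular sinus macrophages (SSMs), which line the sinus where lymph enters the node, differ from medullary sinus macrophages (MSMs), which sit where lymph leaves it, and how both differ between tumor-draining (tdLN) and non-draining (ndLN) nodes. All animals were male C57B/6 mice that carried MOC2, a chemically induced mouse squamous cell carcinoma line, for 2 weeks after 500000 cells were placed into the skin of the flank. The ndLN were the inguinal, axillary and brachial nodes of the opposite side of the same animals, so every group came from mice with a tumor and none from mice without one. A pool joined the nodes of 2 mice, with 2 tdLN or 6 ndLN, and by the pool numbers of the labels each pool gave 1 library of every group, so that 2 libraries stood for each of SSM ndLN, SSM tdLN, MSM ndLN and MSM tdLN. Both subsets were sorted as live CD45+ cells that carried CD11b and CD169 but not CD3, B220 or Ly6G. They were then split into SSMs, without CD11c and with low side scatter, and MSMs, with CD11c and high side scatter.

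Scavenger receptors are a mixed set of surface proteins that bind modified lipoproteins, microbial surfaces and dying cells and carry them into the cell. Endocytic receptors such as the mannose receptor and the LDL receptor family remove glycoproteins, proteases and lipoproteins through clathrin-coated pits, and the receptors return to the surface while the cargo goes to lysosomes. Sinus macrophages of the lymph node are known for this clearance, since lymph flows directly over them.

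Each library held between 42972328 and 48130352 counts, so that 3 counts, the level that a count of 0 still allows, correspond to between 0.0623 and 0.0698 CPM. Levels are given as CPM, counts scaled to a common library size with TMM. Such floors use library sizes before TMM scaling and cover counting error only. The 2 libraries of a group are 2 pools of mice, and the p-values measure only the spread between such pools. The gate that split the subsets used CD11c and side scatter, and Itgax was lower in SSMs, as that gate sets it. Both subsets were gated on CD169, but Siglec1 was lower in MSMs than in SSMs and was low in MSM ndLN. Siglec1, which encodes CD169, ran from 8.47 to 15.1 CPM in SSM ndLN and from 59.2 to 70.0 in SSM tdLN, against 0.795 to 1.63 in MSM ndLN and 5.64 to 5.96 in MSM tdLN. Itgax, which encodes CD11c, ran from 396 to 418 CPM in MSM ndLN and from 63.6 to 100.4 in SSM ndLN. The libraries also held transcripts of cells that the gate was meant to leave out. Cd3e, a T cell receptor component, reached 143 to 151 CPM in SSM ndLN and 75.0 to 84.3 in SSM tdLN, against 2.14 to 3.05 in MSM tdLN. MSM tdLN was the lower of the 2 MSM groups for Cd3e. Its fitted log2 fold change from MSM ndLN to MSM tdLN was -2.47 ± 0.27 SE, not past the threshold given below.

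The receptor group differed in make-up between the subsets and, within SSMs, between the nodes. Msr1 and, in ndLN, Stab2 were higher in SSMs, Cd36 in both nodes and Scarb1 in ndLN were lower in SSMs, and Lrp1 was higher in SSMs of tdLN. From ndLN to tdLN, Mrc1, Msr1, Scarb1 and Lrp1 rose in SSMs and Cd36 fell. No member passed the test between the nodes in MSMs. A gene counted as changed at an adjusted p-value under 0.01 in edgeR's quasi-likelihood test, corrected over 21085 genes, with a mean normalized count over 100. In all, 7 of the 10 members reached that mean count, and Colec12, Stab1 and Cd5l did not, so these 3 could not be called.

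**Figure D1:**
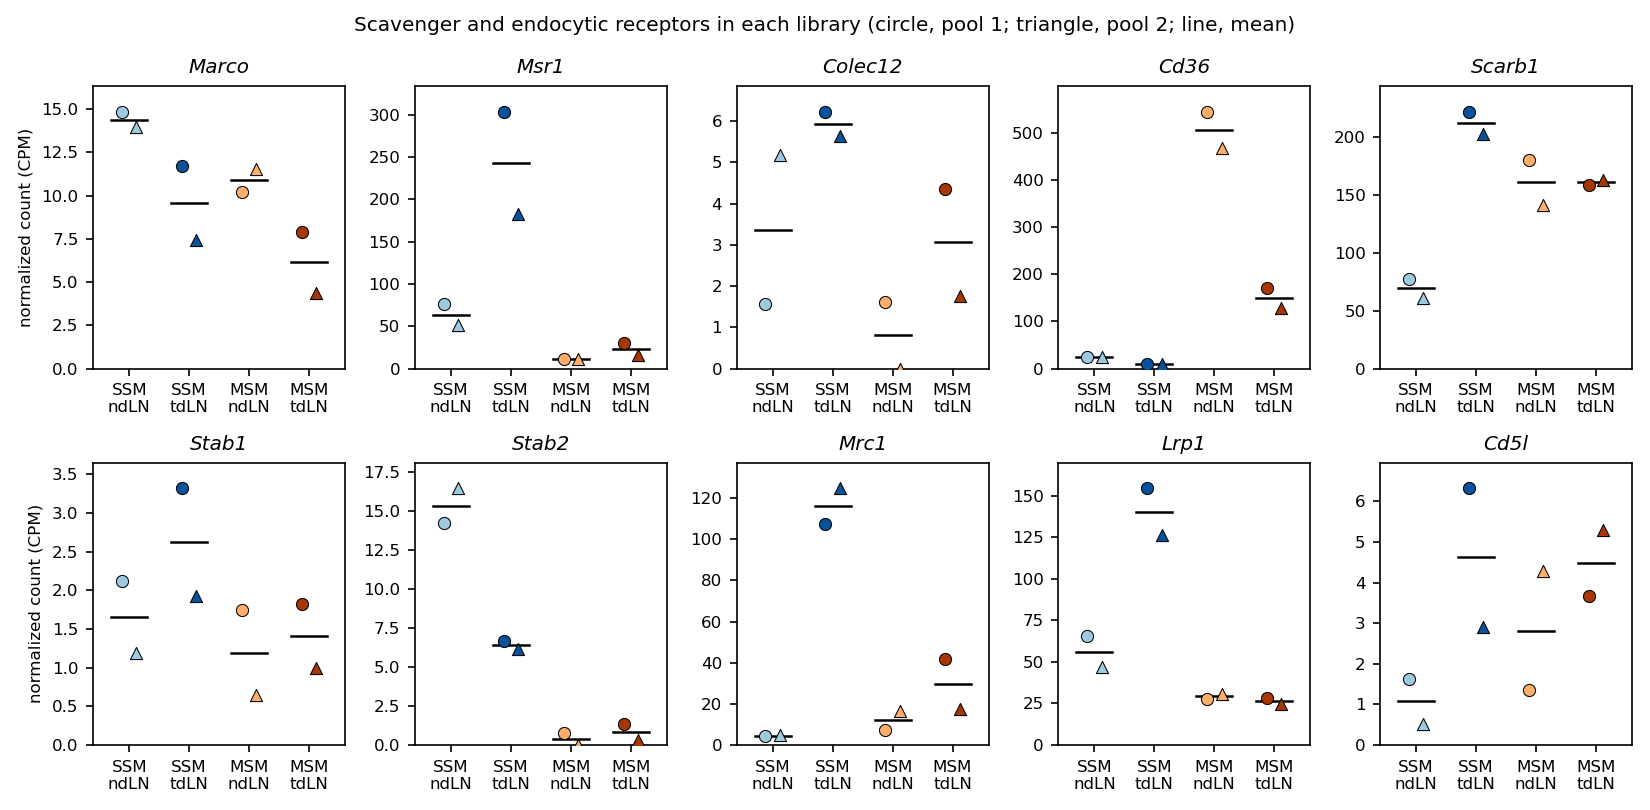
Levels of the 10 receptor genes in the 8 libraries, in CPM on linear axes that start at 0, with 1 point per pool and a line at the mean of the 2 pools of each group. Msr1 was highest in the SSM tdLN libraries and Cd36 in the MSM ndLN libraries, and the Mrc1 values of SSM tdLN lay above those of the other groups.

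Msr1 and Marco encode trimeric class A scavenger receptors with a collagen-like stalk, and Colec12 encodes a class A receptor that ends in a C-type lectin domain. Msr1 (ENSMUSG00000025044, chr8:39581685-39642673 on the minus strand of GRCm38, as for all coordinates here) measured 76.1 and 51.5 CPM in the 2 SSM ndLN libraries and 304 and 183 in SSM tdLN. In MSMs it measured 11.7 and 11.8 CPM in ndLN and 30.3 and 16.1 in tdLN. The 4 groups did not overlap, and both SSM groups lay above both MSM groups. Msr1 was 5.26-fold higher in SSMs than in MSMs in ndLN (log2 fold change 2.40 ± 0.23 SE, adjusted p = 0.000323) and 10.5-fold higher in tdLN (log2 fold change 3.40 ± 0.223 SE, adjusted p = 0.000107). Within SSMs it rose 3.77-fold from ndLN to tdLN (log2 fold change 1.91 ± 0.205 SE, adjusted p = 0.00259). In MSMs the same difference was a log2 fold change of 0.91 with an adjusted p of 0.194, and the node differences of the 2 subsets were not shown to differ (interaction 1.00 on the log2 scale, adjusted p = 0.222, edgeR). As these are bulk samples, a change in the number of cells that carry a transcript and a change in the transcript per cell cannot be told apart.

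Marco (chr1:120474538-120505024, minus strand), a receptor for particles and bacteria, was detected in all 4 groups. Its CPM was low beside that of Msr1 in SSMs, but its exons span only 1925 bases. Per kilobase of exon Marco held rank 3 of the 10 members in SSM ndLN and in MSM ndLN. It measured 14.9 and 13.9 CPM in SSM ndLN, 11.7 and 7.45 in SSM tdLN, 10.2 and 11.6 in MSM ndLN and 7.90 and 4.38 in MSM tdLN. The SSM tdLN libraries overlapped both MSM groups, and none of the 7 comparisons passed the test, with adjusted p-values from 0.118 to 0.937. Colec12 (chr18:9707595-9882644, plus strand) was low, at 1.56 and 5.17 CPM in SSM ndLN, 6.23 and 5.64 in SSM tdLN and 4.36 and 1.76 in MSM tdLN. In MSM ndLN it measured 1.62 CPM in pool 1 and had 0 counts in pool 2, which allows a level of up to 0.0645 CPM before TMM scaling. Sequence sharing adds to the uncertainty of Colec12, since 4.33% of its 50-base windows also occur in other genes.

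Cd36 and Scarb1 encode the class B receptors CD36, which takes up oxidized lipoproteins and fatty acids, and SR-B1, which exchanges cholesterol with high-density lipoprotein. Cd36 (ENSMUSG00000002944, chr5:17781690-17888801, minus strand) measured 545 and 468 CPM in MSM ndLN and 171 and 129 in MSM tdLN. In SSMs it measured 23.7 and 24.5 CPM in ndLN and 10.1 and 10.2 in tdLN. The groups did not overlap, and in both subsets the tdLN libraries were the lower ones. Cd36 was 20.9-fold lower in SSMs than in MSMs in ndLN (log2 fold change -4.39 ± 0.173 SE, adjusted p = 1.46e-05) and 14.7-fold lower in tdLN (log2 fold change -3.87 ± 0.179 SE, adjusted p = 4.67e-05). Within SSMs it was 2.37-fold lower in tdLN than in ndLN (log2 fold change -1.25 ± 0.178 SE, adjusted p = 0.00681). In MSMs its log2 fold change between the nodes was larger, at -1.76 ± 0.152 SE, but its adjusted p of 0.012 lay just over the threshold, and without the pool term it was 0.00663. The interaction for Cd36 was 0.51 on the log2 scale with an adjusted p of 0.442, so the fall was not shown to differ between the subsets.

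Scarb1 (chr5:125277087-125341094, minus strand) had a different pattern from Cd36. It measured 77.4 and 61.0 CPM in SSM ndLN and 222 and 202 in SSM tdLN, while MSMs held 180.2 and 141 in ndLN and 159 and 163 in tdLN. The SSM ndLN libraries were the low ones, the SSM tdLN libraries lay above all others, and the 2 MSM groups overlapped. Scarb1 was 2.32-fold lower in SSMs than in MSMs in ndLN (log2 fold change -1.21 ± 0.151 SE, adjusted p = 0.00107), while in tdLN the log2 fold change was 0.39 with an adjusted p of 0.129. Within SSMs it rose 3.07-fold in tdLN (log2 fold change 1.62 ± 0.152 SE, adjusted p = 0.00197), and in MSMs the fitted difference was 0.02 ± 0.148 SE on the log2 scale. The node difference was larger in SSMs than in MSMs by 1.60 ± 0.211 SE, with an adjusted p of 0.0228, which did not reach 0.01.

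Mrc1 (ENSMUSG00000026712, chr2:14229392-14332057, plus strand) encodes the mannose receptor CD206, a C-type lectin that clears glycoproteins, and it showed the widest node difference among the members in SSMs. It measured 4.19 and 5.05 CPM in SSM ndLN and 108 and 125 in SSM tdLN. In MSMs it measured 7.51 and 16.5 CPM in ndLN and 41.8 and 17.7 in tdLN. SSM ndLN held the lowest 2 values and SSM tdLN the highest 2, and the MSM libraries lay between them with a wide spread between pools. Mrc1 rose 25.2-fold in SSMs of tdLN (log2 fold change 4.65 ± 0.513 SE, adjusted p = 0.00265). In MSMs its log2 fold change between the nodes was 1.29 ± 0.477 SE with an adjusted p of 0.345, and the interaction was 3.36 with an adjusted p of 0.0855. Between the subsets the sign of its log2 fold change turned from -1.39 in ndLN (adjusted p = 0.114) to 1.97 in tdLN (adjusted p = 0.0191), neither past the threshold in edgeR, and without the pool term the value in tdLN had an adjusted p of 0.00891.

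Lrp1 (ENSMUSG00000040249, chr10:127538161-127621148, minus strand) encodes a very large receptor of the LDL receptor family that clears apolipoprotein E particles and complexes of proteases with their inhibitors. It measured 65.7 and 46.8 CPM in SSM ndLN and 155 and 126 in SSM tdLN, against 27.4 and 31.0 in MSM ndLN and 28.4 and 24.6 in MSM tdLN. Both SSM groups lay above the MSM groups, which overlapped each other. Lrp1 was 5.29-fold higher in SSMs than in MSMs in tdLN (log2 fold change 2.40 ± 0.194 SE, adjusted p = 0.000231), and in ndLN the log2 fold change of 0.92 had an adjusted p of 0.0111. Within SSMs it rose 2.51-fold in tdLN (log2 fold change 1.33 ± 0.183 SE, adjusted p = 0.00609). In MSMs the log2 fold change was -0.15, with an adjusted p of 0.818, and the interaction was 1.48 with an adjusted p of 0.0588.

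The stabilins are large receptors for hyaluronan and modified proteins, and both are known from sinusoidal endothelium as well as from macrophages. Stab2 (ENSMUSG00000035459, chr10:86841198-87008025, minus strand) measured 14.2 and 16.5 CPM in SSM ndLN and 6.68 and 6.19 in SSM tdLN. In MSM ndLN it measured 0.743 CPM in pool 1 and a single count in pool 2, and in MSM tdLN 1.33 and 0.308. Both SSM groups lay above the MSM libraries, and SSM ndLN was the higher of the 2. Stab2 was higher in SSMs than in MSMs in ndLN (log2 fold change 5.41 ± 0.634 SE, adjusted p = 0.000746), and with 1 MSM library at a single count the fitted value ran from 4.41 to 9.22 over the alternatives. In tdLN the log2 fold change was 3.01 with an adjusted p of 0.0131, or 0.00641 without the pool term. The lower level in SSM tdLN than in SSM ndLN was a log2 fold change of -1.26 with an adjusted p of 0.0834.

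The 8 markers of lymphatic endothelium, which can also carry Stab2, summed to 3.70 to 7.14 CPM in SSM ndLN, 4.78 to 5.89 in SSM tdLN, 2.59 to 5.10 in MSM ndLN and 8.27 to 10.2 in MSM tdLN. In SSM ndLN, where Stab2 was highest, Lyve1, Mmrn1 and Ccl21a were at 0 counts. Others of the list were detected there. Prox1 had a mean of 0.871 ± 0.459 CPM (SD, n = 2) in SSM ndLN and 0 counts in both MSM ndLN libraries, with an adjusted p of 0.0411 that did not pass 0.01, and Flt4 measured 2.22 to 5.48 CPM in SSM ndLN and 1.45 to 3.15 in MSM ndLN, where the groups overlapped. The 8 blood endothelial markers had a higher sum in SSMs, at 85.0 to 93.4 CPM in SSM ndLN and 83.5 to 88.9 in SSM tdLN against 39.5 to 65.5 in MSM ndLN and 49.4 to 50.9 in MSM tdLN, with Pecam1 as the 1 marker of the list called in ndLN, at a log2 fold change of 1.06, and a median log2 fold change of the list of -2.40 there. Over all genes tested, 12.1% were called between the subsets in ndLN. The part of either endothelial list in the Stab2 difference was not tested. Stab1 (chr14:31139013-31168641, minus strand) was low in every library, with a range from 0.646 to 3.32 CPM and overlap between all neighbouring groups. Exons of Stab1 overlap those of Nt5dc2 on the opposite strand. Nt5dc2 measured 3.77 to 10.5 CPM and lay above Stab1 in each library. Exons of Stab2 overlap Gm16268, which had at most 2 counts in a library. The strand setting of the counting was not given in the sources used here, so reads of such pairs may be shared.

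Cd5l (chr3:87357881-87371073, plus strand) encodes AIM, a secreted protein of the scavenger receptor cysteine-rich family that is known from tissue macrophages. It measured 1.62 and 0.526 CPM in SSM ndLN, 6.32 and 2.91 in SSM tdLN, 1.36 and 4.28 in MSM ndLN and 3.66 and 5.28 in MSM tdLN. The SSM ndLN libraries lay below those of SSM tdLN and of MSM tdLN, the other groups overlapped, and the log2 fold change between the nodes in SSMs was 2.08 with an adjusted p of 0.137 in edgeR.

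Counted over the group, 4 of the 10 members changed between SSMs and MSMs in ndLN, with 2 higher and 2 lower in SSMs, where 12.1% of all genes tested were called (6.01% higher and 6.06% lower). In tdLN 3 members changed, with 2 higher and 1 lower, where 8.69% of genes were called (5.16% higher and 3.53% lower). The median log2 fold change of the members was 0.44 in ndLN and 0.94 in tdLN, beside 0.09 and 0.02 over all genes tested. Between the nodes in SSMs 5 members changed, with 4 higher and 1 lower in tdLN, where 3.04% of genes were called (1.99% higher and 1.05% lower), and the members' median was 1.08 beside -0.04 over all genes. In MSMs 0 members changed between the nodes, where 0.0237% of genes were called. The members' median log2 fold change there was 0.45 beside 0.01 over all genes. An unadjusted p under 0.05 was reached there by 4 members and by 2517 of the 21085 genes tested. DESeq2 called 1 member, Cd36, and 496 genes. The interaction of subset and node also called 0 members, where 0.0379% of genes were called. For it 4 members and 2600 of the 21085 genes tested had an unadjusted p under 0.05. DESeq2 called 3 members for it, namely Scarb1, Mrc1 and Lrp1, and 677 genes. Each comparison shares libraries with others, so they are not independent. The ranges of the 2 groups did not overlap for 7 members between the subsets in ndLN, 8 in tdLN, 9 between the nodes in SSMs and 5 in MSMs, where 57.2%, 56.6%, 51.9% and 38.5% of all genes tested had such ranges. Over both nodes, 4 members differed between the subsets (Msr1, Stab2 and Lrp1 higher in SSMs, Cd36 lower), where 12.5% of genes were called (6.45% higher and 6.04% lower), and over both subsets 1 member, Cd36, was lower in tdLN, where 0.223% were called.

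**Figure D2:**
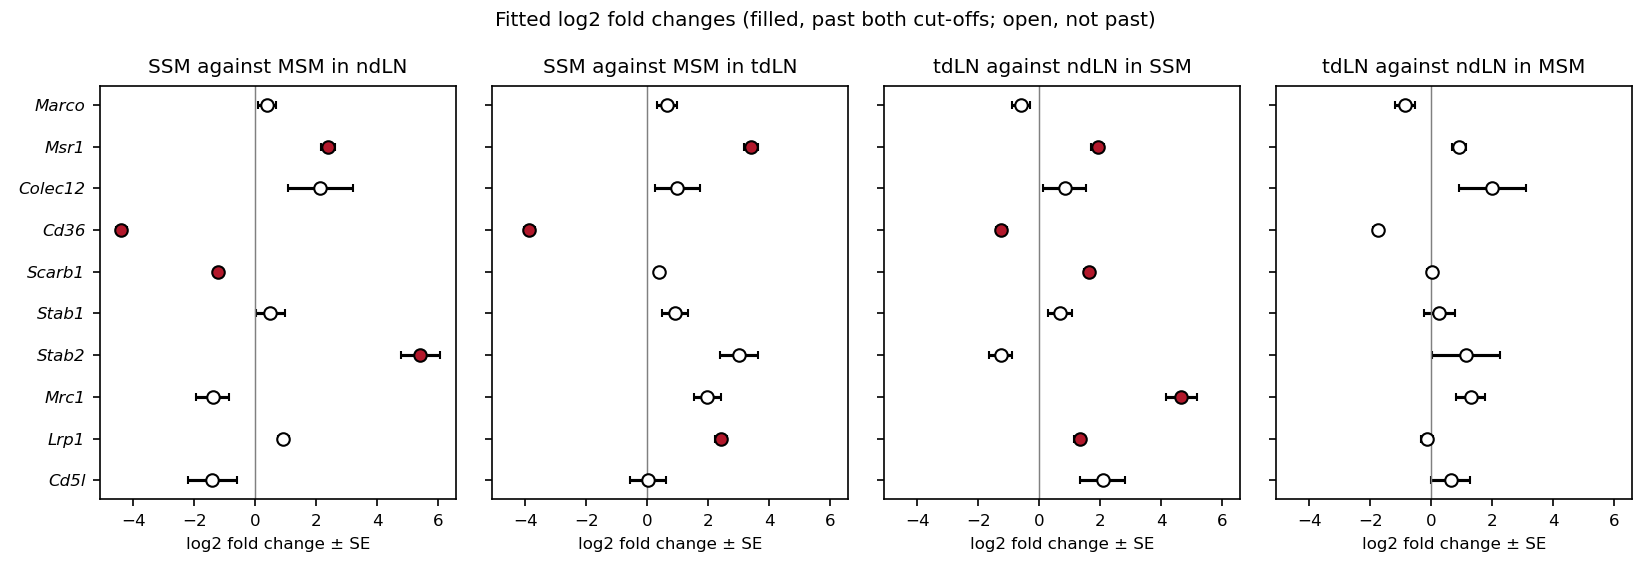
Fitted log2 fold changes of the 10 receptor genes with their standard errors in 4 comparisons, with filled points for genes past both cut-offs and open points for the others. In the third panel 5 points are filled, for Msr1, Cd36, Scarb1, Mrc1 and Lrp1, and in the fourth panel none is.

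Between the subsets, Msr1 and Cd36 in both nodes and Lrp1 in tdLN stayed past the threshold in each of 16 other fits, 8 of which left out 1 library. Scarb1 in ndLN lost its call without MSM ndLN pool 1 (adjusted p = 0.0155), and Stab2 in ndLN without SSM ndLN pool 1, SSM ndLN pool 2 or MSM ndLN pool 2. Both also lost it when the 4 ndLN libraries were fitted alone. Between the nodes in SSMs all 5 directions were kept in the same fits, but 0 of the 5 calls were left without SSM ndLN pool 2, SSM tdLN pool 1 or SSM tdLN pool 2, and 1 was left, Scarb1, without SSM ndLN pool 1. Without MSM tdLN pool 1 or pool 2, 3 calls were left, and a fit of the 4 SSM libraries alone left 0. The call of Cd36 in this comparison was lost without any 1 of the 8 libraries.

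Per kilobase of exon, which allows levels of different genes to be compared, Msr1, Scarb1, Marco and Cd36 lay close together in SSM ndLN, at 10.1 ± 2.74, 8.14 ± 1.36, 7.48 ± 0.335 and 6.72 ± 0.16 CPM per kb (mean ± SD, n = 2). In SSM tdLN the order was Msr1 at 38.3 ± 13.5, Scarb1 at 24.9 ± 1.62, Mrc1 at 18.2 ± 1.92 and Lrp1 at 7.93 ± 1.12 CPM per kb, and Cd36 was below these. In MSM ndLN Cd36 stood far above the rest at 141 ± 15.2 CPM per kb, followed by Scarb1 at 18.9 ± 3.28, and in MSM tdLN the same 2 genes led at 41.8 ± 8.21 and 18.9 ± 0.342. Of the members' summed level per kb, Cd36 made up 82.5% and 80.8% in the 2 MSM ndLN libraries, 55.4% and 53.7% in MSM tdLN, 15.5% and 19.2% in SSM ndLN and 2.49% and 3.20% in SSM tdLN. Msr1 made up 28.2% and 22.8% in SSM ndLN and 42.2% and 32.4% in SSM tdLN, and the share of Mrc1 went from 1.54% and 2.22% to 14.9% and 22.0%. Scarb1 ranked second in all 4 groups, and made up 21.4% and 20.1% in SSM ndLN, 23.0% and 26.7% in SSM tdLN, 11.5% and 10.3% in MSM ndLN and 21.7% and 28.5% in MSM tdLN.

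**Figure D3:**
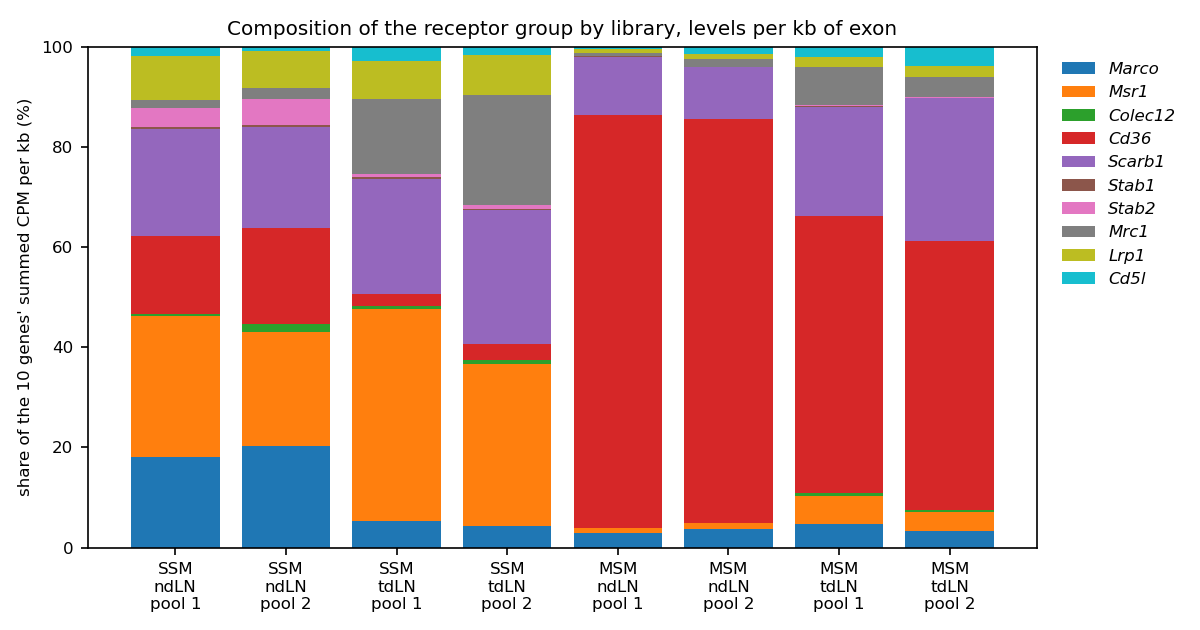
Composition of the receptor group in each of the 8 libraries, as the share in percent of the 10 genes' summed CPM per kb of exon. Cd36 fills 82.5% and 80.8% of the MSM ndLN bars and 55.4% and 53.7% of the MSM tdLN bars, and Mrc1 forms a broad band in the SSM tdLN bars that is narrow in SSM ndLN.

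Other receptors of the same classes were taken from a list of 15 further scavenger receptors, of which 14 were tested. In ndLN 3 were higher and 3 lower in SSMs. Cd163l1, a receptor of the CD163 family that is also known from gamma delta T cells, was the widest at a log2 fold change of 5.64 (adjusted p = 0.000732), and Olr1, the receptor LOX-1 for oxidized LDL, was higher by 1.73. Cxcl16, which binds oxidized lipids and also serves as a chemokine, was lower by a log2 fold change of -2.58 and Timd4, a receptor for phosphatidylserine on dying cells, of -1.91. In tdLN 4 of this list were higher, including Scarf1 (3.38), and 1 was lower, Cxcl16 (-1.36). Between the nodes in SSMs 1 rose, the lysosomal macrophage glycoprotein gene Cd68, with a log2 fold change of 1.68 (adjusted p = 0.00192, edgeR), and 0 fell. Of 20 other endocytic receptors 17 were tested, and between the nodes in SSMs 0 were called by edgeR (median log2 fold change -0.02, as against -0.04 over all genes). An unadjusted p under 0.05 was reached by 5 of them and by 4848 of the 21085 genes tested. DESeq2 called 3 of them and 1932 genes. Between the subsets Sorl1, a sorting receptor of the same family as Lrp1, was higher in SSMs in ndLN (1.33) and tdLN (1.64), and Ly75, the receptor DEC-205 of dendritic cells, was lower in both, with -2.71 in tdLN. This list had 1 higher and 2 lower in ndLN, and 2 higher and 1 lower in tdLN. For the lists here and below, 6.01% of all genes tested were called higher and 6.06% lower in SSMs in ndLN. In tdLN these shares were 5.16% and 3.53%, and between the nodes in SSMs 1.99% and 1.05%. The 1 higher of 17 in ndLN lay near its share.

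Ligands and partners of LRP1 formed a list of 16 genes, 14 of them tested, of which 3 were higher and 2 lower in SSMs in ndLN, and 4 higher and 1 lower in tdLN. Thbs1, which encodes the secreted LRP1 ligand thrombospondin 1, ran from 1713 to 2445 CPM in SSM ndLN and from 3250.0 to 4961 in SSM tdLN, against 165 to 199 in MSM ndLN and 194 to 312 in MSM tdLN. Its log2 fold change between the subsets was 3.46 in ndLN (adjusted p = 7.46e-05) and 4.03 in tdLN (adjusted p = 8.32e-05, edgeR). Plat, the tissue plasminogen activator gene, was lower in SSMs in ndLN (-2.47) and tdLN (-3.01). In SSMs 1 gene of this list rose in tdLN, the lipoprotein lipase gene Lpl (1.87, adjusted p = 0.00946).

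Partners of CD36 and SR-B1 and genes of lipid handling made a list of 16 genes, all tested. In SSMs 6 of them rose in tdLN and 0 fell, with a median log2 fold change of 0.84 beside -0.04 over all genes. The 3 widest were Fabp5, a fatty acid binding protein gene, at 2.61 (adjusted p = 0.00143), Tlr2, a Toll-like receptor that can act with CD36, at 1.60 (adjusted p = 0.00429), and Plin2, which coats lipid droplets, at 1.47 (adjusted p = 0.00192, edgeR). Between the subsets 1 was higher and 2 lower in SSMs in ndLN, and 4 were higher and 1 lower in tdLN. The cholesterol exporter gene Abca1 was higher in SSMs in both nodes (2.74 and 2.49), and Cd9, a tetraspanin gene, was lower (-1.58 and -2.04).

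The machinery of clathrin-coated pits, 24 genes that were all tested, had 2 members higher and 5 lower in SSMs in ndLN and 0 higher and 1 lower in tdLN. The 1 lower in tdLN lay near the share of 3.53% over all genes tested. In SSMs 2 rose in tdLN, and 0 fell. These were Dab2, an adaptor for receptors of the LDL receptor family, at 2.20 (adjusted p = 0.00499), and Ap2a2, a subunit of the AP-2 adaptor, at 1.36 (adjusted p = 0.00231, edgeR). Of 17 transcription factors known from macrophage receptor genes, 6 were higher and 3 lower in SSMs in ndLN, and 7 higher and 1 lower in tdLN. Maf was higher in SSMs in both nodes, with log2 fold changes of 4.02 in ndLN and 4.05 in tdLN, and Spi1, which encodes PU.1, was lower in ndLN (-2.25). In SSMs 5 rose in tdLN, led by Nr1h3, the gene of the oxysterol receptor LXR-alpha, at 2.40, with Spic at 1.93, and 1 fell, Bhlhe40 (-1.07). The median log2 fold change between the nodes in SSMs was 0.62 for the scavenger receptors, 0.41 for the LRP1 list, 0.30 for the clathrin list and 0.61 for the transcription factors. In MSMs, 0 of the 102 genes tested in these 6 lists were called between the nodes by edgeR. An unadjusted p under 0.05 was reached by 25 of them and by 2517 of all 21085 genes tested. DESeq2 called 8 of them and 496 of all genes. Between the nodes in MSMs, Fabp5 had an unadjusted p of 7.00e-06 and a log2 fold change of 2.27, with an adjusted p of 0.0123 (edgeR). Spic had a log2 fold change of 1.69 ± 0.166 SE there, with an adjusted p of 0.0183 (edgeR). Over both subsets, both Fabp5 and Spic were called higher in tdLN.

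Levels of marker lists of other cell types moved with several of these results. Between the nodes in SSMs 5 members changed. The 8 monocyte markers summed to 1488 to 2718 CPM in SSM ndLN and 4793 to 4993 in SSM tdLN. A list of 6 macrophage genes summed to 2397 to 2694 CPM in SSM ndLN and 4014 to 5114 in SSM tdLN. Of these, Siglec1, Itgam, Ptprc and Itgax encode proteins of the gate, while Csf1r and Adgre1 were not gated on. In the opposite direction, the 8 innate-like lymphoid markers summed to 1754 to 2214 CPM in SSM ndLN and 661 to 761 in SSM tdLN. The 8 T cell markers summed to 1139.7 to 1244 CPM in SSM ndLN and 478 to 515 in SSM tdLN, and the 8 mast cell and basophil markers to 1752 to 2679 CPM in SSM ndLN and 249.6 to 573 in SSM tdLN. Neutrophil markers summed to 68.9 to 168 CPM in SSM ndLN and 284 to 483 in SSM tdLN, and fibroblastic reticular markers to 22.8 to 43.6 CPM in SSM ndLN and 67.6 to 129 in SSM tdLN. The part of these cell types in the rise of Mrc1, Msr1, Scarb1 and Lrp1 and in the fall of Cd36 was not tested.

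Between the subsets, the 8 dendritic cell markers were high where Cd36 was high, at 3661 to 4021 CPM in MSM ndLN and 4153 to 4309.6 in MSM tdLN, against 1559 to 2307 in SSM ndLN and 802 to 1158 in SSM tdLN. Cd207, a marker of this list chosen after its values were seen, measured 68.9 to 126 CPM in MSM ndLN and 17.4 to 21.9 in MSM tdLN. Its log2 fold change between the nodes in MSMs was -2.28 and was not called (adjusted p = 0.059, edgeR). The list as a whole did not share this fall, with a median log2 fold change of -0.07 and 0 markers called there. Itgae, Batf3 and Ccr7 were higher in MSM tdLN, also without a call. Among the 8 dendritic cell markers, 0 were higher and 5 lower in SSMs in ndLN, and 0 were higher and 8 lower in tdLN. Over all genes tested, 6.06% were called lower in SSMs in ndLN and 3.53% in tdLN. NK and cytotoxic markers were high where Msr1 and Stab2 were high, at 2749 to 3419 CPM in SSM ndLN and 2098 to 3038 in SSM tdLN, against 292 to 324 and 214 to 248 in MSM ndLN and MSM tdLN, and innate-like lymphoid markers in MSMs summed to 60.0 to 88.9 in ndLN and 37.1 to 39.5 in tdLN. Monocyte markers in MSMs stood at 433 to 514 CPM in ndLN and 490.2 to 539.9 in tdLN, below their sums in SSMs. B cell markers summed to 320.4 to 351 CPM in SSM ndLN, 328 to 369 in SSM tdLN, 352 to 1481 in MSM ndLN and 305 to 332 in MSM tdLN. Neutrophil markers summed to 8.18 to 15.7 CPM in MSM ndLN and 14.6 to 29.7 in MSM tdLN, below both SSM groups. Mast cell and basophil markers summed to 607 to 619 CPM in MSM ndLN. In MSM tdLN they summed to 270.2 to 375 CPM and overlapped the SSM tdLN sums of 249.6 to 573. Their median log2 fold change between the subsets was 9.10 in ndLN and 9.24 in tdLN. Of these 8 markers, 5 were higher and 0 lower in SSMs in ndLN. In tdLN 5 were higher and 1, Kit, was lower. T cell markers summed to 592 to 769 CPM in MSM ndLN and 466 to 512 in MSM tdLN, which overlapped the SSM tdLN sums. Their median log2 fold change between the subsets was 2.99 in ndLN and 4.29 in tdLN. In ndLN 7 of the 8 were higher in SSMs and 1, Cd8a, was lower. In tdLN 6 were higher and 1, again Cd8a, was lower, at a log2 fold change of -5.11. The part of these cells in the differences of Cd36, Msr1, Stab2, Lrp1 and Scarb1 between the subsets was not tested.

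**Figure D4:**
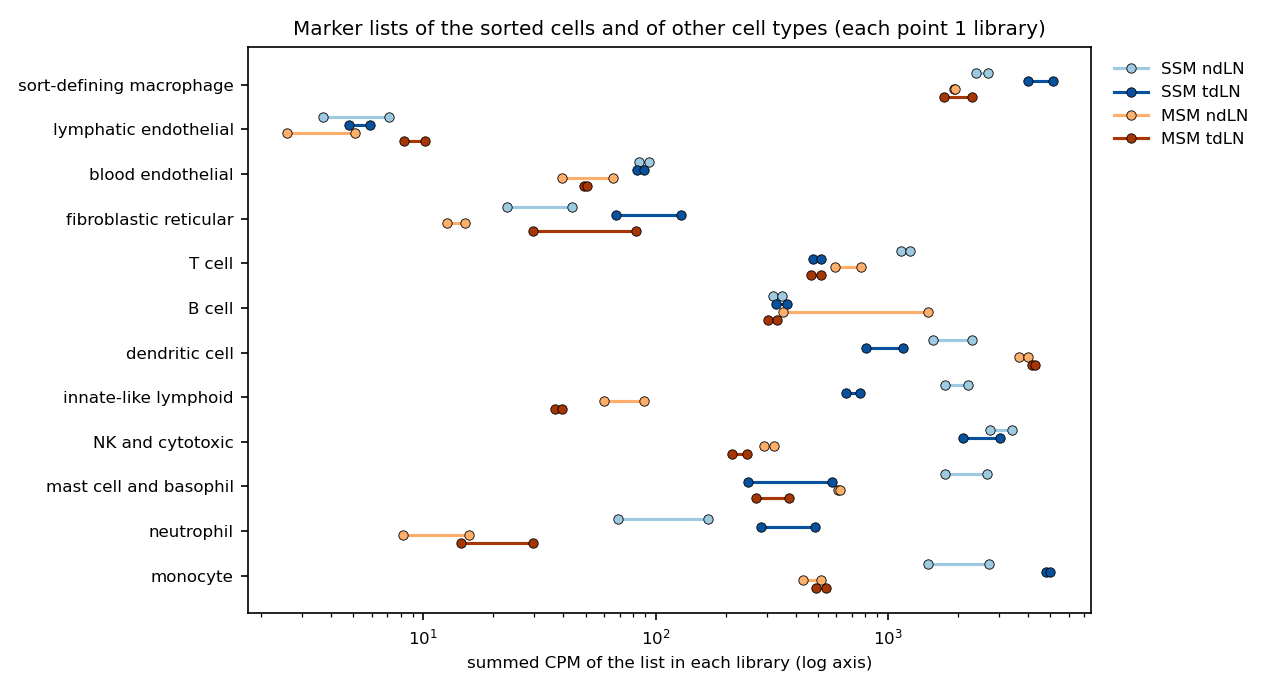
Summed CPM of the marker lists in the 8 libraries, on a log axis, with 1 point per pool. Dendritic cell markers are highest in the MSM libraries, and markers of NK, innate-like lymphoid and mast cells, of T cells and of monocytes are highest in the SSM ndLN or SSM tdLN libraries.

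The genes whose levels followed each member most closely were found by Pearson's r over the 8 libraries, on log2(CPM + 1), among the 9996 genes over the mean count. For Msr1 these were C3 (0.997), Gab1 (0.996), Csf1r (0.994), that is, complement C3, an adaptor of growth factor receptors and the receptor for the macrophage growth factor CSF1. For Lrp1 they were Nceh1 (0.99), Apoe (0.988), Prdx5 (0.986), of which Nceh1 hydrolyses cholesterol esters and Apoe encodes a ligand of LRP1 itself. For Mrc1 they were Slc15a4 (0.985), Adap1 (0.977), Ntpcr (0.974), for Cd36 Sdcbp2 (0.997), Pi4k2a (0.993), Dcaf7 (0.992), and for Scarb1 Ugt1a7c (0.983), Zfp36 (0.983), Snx2 (0.98). Stab2 was followed by Pgm2l1 (0.998), Msl2 (0.993), Ephb6 (0.993), and Marco by Slc15a2 (0.989), Mettl3 (0.976), Ppp1r10 (0.968). The 3 low genes were followed by Rev1 (0.971), Cxcl12 (0.967), Tradd (0.954) for Colec12, Arhgap27 (0.963), Txndc9 (0.953) for Stab1 and Tmem60 (0.968), Mrpl24 (0.945), Lsm12 (0.94) for Cd5l. All these values describe 8 libraries in 4 groups that share pools, and they are given without a test.

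Of the 10 members, 7 matched the RefSeq promoter windows used here (GRCm38.p6), and Msr1, Scarb1 and Colec12 did not. Shown are the 250 bases before the RefSeq start of Mrc1 (chr2:14229164-14229413, plus strand) and Lrp1 (chr10:127621149-127621398, minus strand), which rose together in SSMs of tdLN, and of Cd36 (chr5:17835897-17836146, minus strand), which fell there. Capitals mark matches to any of 7 motifs, searched on both strands.
Mrc1: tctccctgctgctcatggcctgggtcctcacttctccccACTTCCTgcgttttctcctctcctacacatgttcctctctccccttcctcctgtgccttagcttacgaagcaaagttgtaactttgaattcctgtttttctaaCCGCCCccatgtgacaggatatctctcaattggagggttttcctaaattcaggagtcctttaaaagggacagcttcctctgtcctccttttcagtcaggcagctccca
Lrp1: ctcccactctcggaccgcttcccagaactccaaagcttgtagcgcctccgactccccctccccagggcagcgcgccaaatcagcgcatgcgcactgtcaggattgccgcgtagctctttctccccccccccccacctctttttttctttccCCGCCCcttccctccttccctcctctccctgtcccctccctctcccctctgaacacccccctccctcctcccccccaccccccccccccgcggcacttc
Cd36: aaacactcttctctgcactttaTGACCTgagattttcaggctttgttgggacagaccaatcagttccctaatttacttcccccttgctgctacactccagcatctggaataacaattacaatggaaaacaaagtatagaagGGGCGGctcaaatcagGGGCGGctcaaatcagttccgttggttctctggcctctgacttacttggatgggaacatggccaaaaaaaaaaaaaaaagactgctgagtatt
The RefSeq starts of Cd36 and Mrc1 lie inside the GENCODE genes and not at their outermost ends. From chr2:14229392 on, the Mrc1 window lies within the GENCODE gene. The motifs were AGGAAGT (PU.1, in 7.69% of the 32851 mouse windows of the same length), TGCTGAC (a MAF half-site, 3.81%), AGGTCA (a half-site of nuclear receptors, 14.0%), TTGCNNAA (C/EBP, 9.56%), GGGCGG (Sp1, 32.7%), TATAAA (a core promoter element, 12.4%) and CACGTG (an E-box, 6.02%). The Mrc1 window held AGGAAGT on the opposite strand starting 211 bases before the start and GGGCGG on the opposite strand at 108 bases. In Lrp1 there was 1 match, to GGGCGG on the opposite strand at 99 bases. The Cd36 window held AGGTCA on the opposite strand at 228 bases and GGGCGG at 109 and 93 bases, within a stretch that is repeated in tandem. No motif was common to Mrc1 and Lrp1 but GGGCGG, which Cd36 also held. A match is a description of letters and not a measured binding site.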

How the data were processed

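RNA from sorted lymph node macrophages was sequenced after SMART-Seq v4 amplification, in 16 samples that are 8 libraries on 2 lanes each. The authors demultiplexed with bcl2fastq 2.20.0.422, trimmed with Trimmomatic 0.36, aligned to GRCm38 with STAR 2.5.3a and deposited raw counts per gene, without normalization; the annotation, strand setting and counting options are not given in the sources used here. The table has 55423 rows, of which 2 are added sequences with 6 and 0 counts that were left out; 55240 gene IDs matched GENCODE M21, which supplied symbols, exon lengths and coordinates. All columns were mapped to samples and 0 were left unused. Full-length amplification without molecular identifiers counts reads, not molecules.

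Lanes were summed, since their counts differed by sampling noise alone (chi-square over degrees of freedom 0.955 to 1.02, against 29.3 to 53.1 between libraries of a group). A gene was tested if its counts summed to 10 or more and 2 or more samples detected it (21085 genes). The test was edgeR 4.0.16 in R 4.3.3, TMM scaling, quasi-likelihood, with group and pool as terms over all 8 libraries and Benjamini-Hochberg adjustment. A gene was called at an adjusted p under 0.01 and a mean normalized count over 100 on the scale of 1 lane, which is 4.41 CPM. The labels number 2 pools, and the study's methods state that every pool gave a library to each group but count 4 pools, whereas the series' design counts 2 biological and 2 technical replicates. The pool term follows the labels, and 1 SSM tdLN library, whose title has no number, was placed in pool 1 from its source name. Deviations of same-numbered libraries from their group means correlated by -0.2 (SSM ndLN and MSM tdLN) to 0.152 (SSM tdLN and MSM tdLN). The procedure was tested on simulated data.

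The members, gene lists and tests were chosen with earlier results of these data known. Named genes were all members, up to 3 called genes per direction in each list, markers of the sort or of lists that moved with a result, and the 3 genes most like each member. Some genes that this rule names are not reported here. Alternatives were DESeq2 1.42.0, no pool term, the legacy edgeR fit, DESeq2 size factors, no count filter, each lane alone, only the groups compared, other cut-offs and each library left out.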

Additional observations from a re-analysis of the deposited data

Results flagged for a closer look

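Scarb1 was singled out because its node difference differed between the subsets at an adjusted p under 0.05 in a test of the difference itself. The interaction of subset and node was 1.60 ± 0.211 SE on the log2 scale with an adjusted p of 0.0228 in edgeR, which did not pass the threshold of 0.01 used for calls. With 1 library left out the adjusted p rose to as much as 0.212, and the interaction kept its direction. In pool 1 Scarb1 went from 77.4 to 222 CPM in SSMs and from 180.2 to 159 in MSMs. In pool 2 it went from 61.0 to 202 CPM in SSMs and from 141 to 163 in MSMs. No other member had an adjusted p under 0.05 in this test.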

How the results depend on the processing

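The 12 member calls between 2 groups kept their direction in each of the 216 alternatives computed for them and their call in 180. Among these alternatives, 2 for each call were looser cut-offs on the main fit, an adjusted p under 0.05 and no mean count cut-off. These 2 could change neither the direction nor the call, so only the other 16 for each call could lose it. The number of members called moved by over 1.5 times in the following cases. Between the subsets in ndLN 2 were called with only the groups compared. In tdLN 5 were called without the replicate block, with DESeq2 or at an adjusted p under 0.05. In SSMs 0 were called between the nodes with only the groups compared. In MSMs 1 was called without the replicate block, with DESeq2, with the legacy fit, on lane 3 alone, on lane 4 alone or at 0.05. The interaction gave 3 with DESeq2 and 1 at 0.05, and the nodes over both subsets 3 with DESeq2 and 2 at 0.05. Leaving out 1 library gave 3 to 4 members for the subsets in ndLN, 3 to 4 in tdLN, 0 to 4 for the nodes in SSMs, 0 to 0 in MSMs, 0 to 0 for the interaction, 2 to 4 for the subsets over both nodes, where 2 were called without SSM ndLN pool 1, and 0 to 0 for the nodes over both subsets, where the call of Cd36 was lost without any 1 of the 8 libraries. The replicate block changed no other call of a member. Where a fit left 1 library in a group, that library was assumed to vary like the others. The cause of these shifts was not tested, apart from the fewer libraries in the fits that left some out.

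Of all genes, DESeq2 called 1932 between the nodes in SSMs (edgeR 640, and 0 with only the groups compared), 496 in MSMs (edgeR 5, and 9 without the block), 677 for the interaction (edgeR 8) and 928 for the nodes over both subsets (edgeR 47, and 110 without the block). At an adjusted p under 0.05 edgeR called 3885 and 3023 between the subsets in ndLN and tdLN, 1832 and 93 between the nodes in SSMs and MSMs and 215 for the interaction, and DESeq2 at 0.01 called 2993 between the subsets in tdLN (edgeR 1833). With 1 library left out the counts ran from 1082 to 2022 and 507 to 1867 for the subsets, 2 to 345 and 0 to 3 for the nodes. With only the groups compared, 954 genes were called between the subsets in ndLN (all libraries 2546).

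None of the reversed values passed the test. They were Cd5l between the subsets in tdLN on lane 4 alone (-0.12) and Scarb1 between the nodes in MSMs with DESeq2 (-0.0152) or its size factors (-0.0153). With 1 library left out, log2 fold changes ran from -0.83 to 0.76 for Cd5l (SSM against MSM in tdLN), -0.24 to 2.31 for Colec12 (tdLN against ndLN in SSM), -0.14 to 0.17 for Scarb1 (tdLN against ndLN in MSM), -0.20 to 4.95 for Stab2 (tdLN against ndLN in MSM), -0.40 to 0.12 for Lrp1 (tdLN against ndLN in MSM), -0.15 to 2.00 for Cd5l (tdLN against ndLN in MSM), -0.0885 to 0.64 for Marco (interaction of subset and node), -9.34 to 0.32 for Colec12 (interaction of subset and node), -0.29 to 1.21 for Mrc1 (SSM against MSM over both nodes). At this depth the 1 count of Stab2 and the 0 counts of Colec12 in MSM ndLN pool 2 leave the size of their folds uncertain.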
